A study of Homo sapiens with 24 samples.

Results

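The 8 genes described here are FN1, COL1A2, SPARC, TGFBI, VIM, CDH2, SNAI2 and ZEB1, which are commonly read as markers or factors of a mesenchymal cell state. They were taken by symbol from a table of 61251 genes, and each symbol matched 1 row. RNA-seq had been made from KYSE450, an established cell line of human esophageal squamous cell carcinoma, in 24 libraries. The 4 groups of 6 libraries were parental cells, drug tolerant persister (DTP) cells of the parental line, chemoresistant cells (titled KYSE450DDP), and DTP cells of the chemoresistant line. All groups were labelled genotype WT and grown in RPMI-1640 with 10% FBS, and total RNA was taken with TRIzol. The labels state no treatment for any group and name no drug, dose or time for the DTP or chemoresistant state. Nothing in them tells if libraries within a group were grown as independent cultures; p-values therefore measure the spread between these libraries, which may be technical. Each state was made in 1 cell line, and whether the chemoresistant line is a single clone is not given in the labels.

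The epithelial-mesenchymal transition (EMT) is a change in which epithelial cells loosen their junctions and take on features of mesenchymal cells. Transcription factors of the SNAI, ZEB and TWIST families bind E-box sequences in epithelial genes such as CDH1 and repress them. TGF-beta signalling through SMAD proteins induces several of these factors and many genes of the extracellular matrix, and microRNAs of the miR-200 family repress the ZEB factors. In squamous epithelia SNAI2 is also a normal factor of basal cells.

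Values are FPKM, fragments per kilobase and per mapped read total, so levels between genes are per length and depend on the length used. The implied length was near the combined exons of the gene for FN1, VIM and ZEB1, but not for CDH2 (8583 against 4950 bases). Recovered reads per library ranged from 14947379 to 37989445. Changes were tested with limma on log2(FPKM + 1) over the 13729 genes whose mean reached 1 FPKM in any group, with Benjamini-Hochberg adjustment and a threshold of 0.05. Of the 8 members 7 passed that filter, and ZEB1 did not. Fold changes on this scale understate the change of genes below about 1 FPKM. Squamous markers fitted the label of the cells: 10 of 10 averaged 1 FPKM or more in every group, and their sum lay between 2740 and 5410 FPKM. The sum was lower in parental DTP (2740 to 3320 FPKM) than in parental libraries (4430 to 4910 FPKM). The summed level of 4 nuclear-retained RNAs, read as a sign of RNA quality, was higher in parental DTP (51.4 to 60.8 FPKM) than in parental libraries (25.0 to 41.7 FPKM), and was 31.9 to 51.4 FPKM in chemoresistant and 41.3 to 58.1 FPKM in chemoresistant DTP libraries. The 2 of them that passed the filter did not always move together. NEAT1 rose by 1.57 and MALAT1 by 0.455 on the log2 scale in parental DTP against parental cells. In chemoresistant against parental cells NEAT1 rose by 1.68 and MALAT1 fell by 0.52. The part of RNA quality in the DTP comparisons below was not tested.

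Some libraries stood apart within their groups. Parental DTP libraries 5 and 6 had lower FN1, COL1A2 and SPARC than the other 4. Chemoresistant libraries 4 to 6 and chemoresistant DTP libraries 1 to 3 had high levels of COL1A2, SPARC and TGFBI, while chemoresistant libraries 1 to 3 and chemoresistant DTP libraries 4 to 6 had low levels. The labels give no batch that matches these sets. Whether libraries of the 2 chemoresistant groups were exchanged, or hold RNA of other samples, cannot be told from the labels, and each value is given under its library's label. Results whose size or call depends on these sets are given below also without them.

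The 8 genes differed in what their levels followed. SNAI2, VIM and ZEB1 were higher and CDH2 was lower in the chemoresistant than in the parental line, in every library. The secreted and matrix genes FN1, COL1A2, SPARC and TGFBI varied more between libraries of 1 group than between groups, and of these only TGFBI differed between the lines by the test. In the DTP comparisons SNAI2 was the single tested member past the threshold.

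**Figure D1:**
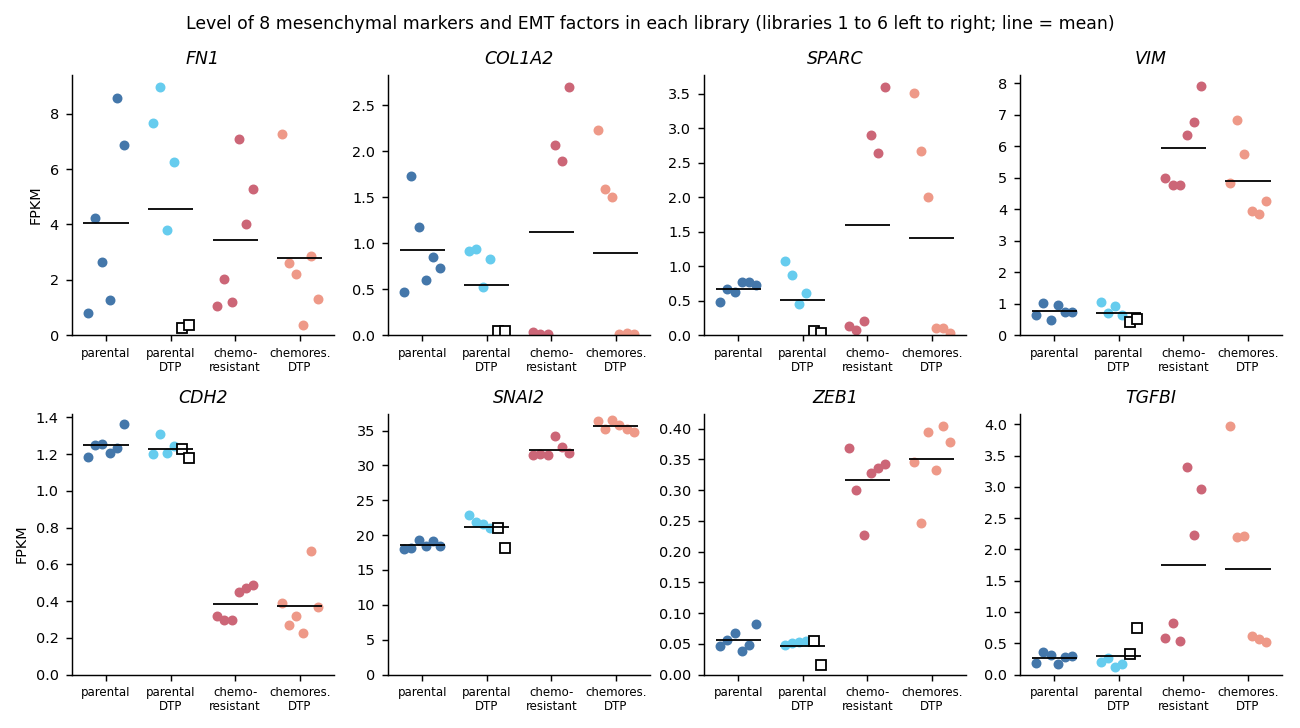
FPKM of each of the 8 genes in each library, with the group mean as a line; white squares are parental DTP libraries 5 and 6. SNAI2, VIM, ZEB1 and CDH2 separate the 2 lines, while COL1A2, SPARC and TGFBI split within the chemoresistant and chemoresistant DTP groups.

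Fibronectin, the product of FN1, is a secreted glycoprotein that cells bind through integrins. FN1 (ENSG00000115414) lies on chromosome 2 from 215360440 to 215436172 on the minus strand (GRCh38, GENCODE release 29). It had the widest scatter of the 8 genes in parental cells. The 6 parental libraries held 0.800, 4.25, 2.63, 1.26, 8.57 and 6.86 FPKM. Parental DTP libraries 1 to 4 held 7.65, 8.98, 3.81 and 6.27 FPKM, and libraries 5 and 6 held 0.278 and 0.385 FPKM. Of the 6 DTP libraries 3 lay inside the parental range, libraries 5 and 6 lay below it and library 2 above it.

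In the chemoresistant line FN1 ran from 1.05 to 7.09 FPKM, with a median of 3.02, in the chemoresistant group. In chemoresistant DTP cells it ran from 0.374 to 7.25 FPKM, with a median of 2.41. None of the 4 pairwise comparisons called FN1 by limma: the log2 fold change was -0.02 (SE 0.54, adjusted p = 0.975) for parental DTP against parental and -0.12 (SE 0.54, adjusted p = 0.843) for chemoresistant against parental. Without parental DTP libraries 5 and 6, FN1 was lower in chemoresistant DTP than in parental DTP cells (log2 fold change -1.19, adjusted p = 0.0404), against -0.36 with them (adjusted p = 0.575). Libraries 5 and 6 held the lowest FN1 of that group, so leaving them out raises its mean. The value without them is therefore no evidence for a difference between the lines.

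The sequence before the FN1 start is shown because FN1 was the one member, of 6 with an entry, with a match to the motif TGACGTCA. RefSeq's promoter table (GRCh38.p14) has entries for FN1, SPARC, VIM, CDH2, ZEB1 and TGFBI. All 250 bases were searched, and the 146 of them that lie before every GENCODE transcript of FN1, chr2:215436173-215436318 on the minus strand, are printed 5′ to 3′ with the motif TGACGTCA in capitals:

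FN1: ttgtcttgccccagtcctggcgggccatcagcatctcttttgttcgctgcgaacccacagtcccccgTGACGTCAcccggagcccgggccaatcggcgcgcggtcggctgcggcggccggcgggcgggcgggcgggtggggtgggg

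TGACGTCA, the palindromic cyclic AMP response element, was found in the 250 bases before the start in 1.65% of 35116 promoters. The E-box CACCTG (17.5% of promoters), the AP-1 element TGACTCA (4.2%) and CAGACA (13.6%), which holds the SMAD-binding letters, were searched on both strands of the same 250 bases and do not occur there in FN1, SPARC, VIM or TGFBI. ZEB1, with several start sites, has CACCTG 1 time in one window and 2 times in another and CAGACA 1 time in a further window, and CDH2 has CAGACA 1 time in one of its 2 windows. No motif overlaps another in the FN1 sequence.

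COL1A2 encodes the alpha 2 chain of type I collagen, the main fibrillar collagen of connective tissue. COL1A2 (ENSG00000164692) lies on chromosome 7 from 94394561 to 94431232 on the plus strand. The gene split the chemoresistant libraries more widely than any other member. Chemoresistant libraries 1 to 3 held 0.0311, 0.00907 and 0.00906 FPKM, which are 8, 2 and 2 recovered reads. Libraries 4 to 6 held 2.07, 1.90 and 2.70 FPKM, or 527, 459 and 770 reads. Chemoresistant DTP libraries 1 to 3 held 2.24, 1.59 and 1.503 FPKM and libraries 4 to 6 held 0.0127, 0.0190 and 0.0182 FPKM. High and low libraries did not overlap. The parental libraries, from 0.465 to 1.74 FPKM, were all above the low ones and below the high chemoresistant ones, and overlapped the high chemoresistant DTP ones.

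In parental DTP cells COL1A2 lay from 0.522 to 0.941 FPKM in libraries 1 to 4 and at 0.0492 and 0.0495 FPKM in libraries 5 and 6. Over all libraries no comparison called the gene: chemoresistant against parental gave a log2 fold change of -0.06 (SE 0.36, limma adjusted p = 0.881). When only the low libraries were kept in the chemoresistant groups, the change was -0.89 (adjusted p = 0.000877), and with only the high ones it was 0.77 (adjusted p = 0.00391). In chemoresistant DTP against parental DTP cells the corresponding values were -0.56 (adjusted p = 0.0286) and 0.88 (adjusted p = 0.0021), against 0.16 (adjusted p = 0.715) with all libraries. These sets were picked by their levels of such genes, so the values describe the split. They are no evidence for it or for a difference between the lines.

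SPARC is a matricellular glycoprotein that binds collagen. SPARC (ENSG00000113140) lies on chromosome 5 from 151661096 to 151687165 on the minus strand. The 6 parental libraries lay between 0.480 and 0.770 FPKM, with a median of 0.701. In chemoresistant cells libraries 1 to 3 held 0.127, 0.0740 and 0.211 FPKM and libraries 4 to 6 held 2.90, 2.63 and 3.597 FPKM. In chemoresistant DTP cells libraries 1 to 3 held 3.52, 2.67 and 2.00 FPKM and libraries 4 to 6 held 0.108, 0.111 and 0.0340 FPKM. Every chemoresistant library was thus either above all parental libraries or below all of them.

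Parental DTP libraries 5 and 6 held 0.0573 and 0.0288 FPKM of SPARC, against 0.455 to 1.07 FPKM in libraries 1 to 4. SPARC was not called in any comparison; chemoresistant against parental gave 0.36 (SE 0.39, limma adjusted p = 0.414). With only the high libraries of the chemoresistant groups it gave 1.27 (adjusted p = 7.77e-06), and with only the low ones -0.56 (adjusted p = 0.00699). In chemoresistant DTP against parental DTP cells these values were 1.33 (adjusted p = 9.16e-06) and -0.43 (adjusted p = 0.0384), against 0.45 (adjusted p = 0.335) with all libraries. The sets were picked by levels of SPARC and similar genes. The values per set thus describe the split and are no evidence for a difference between the lines.

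TGFBI encodes a secreted matrix protein that is induced by TGF-beta and binds integrins. TGFBI (ENSG00000120708) lies on chromosome 5 from 136028895 to 136063818 on the plus strand. Parental libraries held 0.174 to 0.365 FPKM, with a median of 0.284. Parental DTP libraries held 0.125 to 0.322 FPKM apart from library 6, at 0.746 FPKM. Chemoresistant libraries 1 to 3 held 0.582, 0.820 and 0.540 FPKM and libraries 4 to 6 held 3.32, 2.23 and 2.97 FPKM. All 6 chemoresistant libraries were above all 6 parental libraries.

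TGFBI was 6.51-fold higher in mean FPKM in chemoresistant than in parental cells (1.74 ± 1.25 against 0.268 ± 0.0731, SD, n = 6 each). On the tested scale that was a log2 fold change of 0.98 (SE 0.27, limma adjusted p = 0.00241). In chemoresistant DTP cells it was 3.97, 2.20 and 2.22 FPKM in libraries 1 to 3 and 0.615, 0.565 and 0.516 FPKM in libraries 4 to 6, and the change against parental DTP was 0.90 (SE 0.27, adjusted p = 0.00639). The size of both differences depended on the libraries. The first was 0.38 (adjusted p = 0.00375) with only the low chemoresistant libraries and 1.59 (adjusted p = 1.32e-08) with only the high ones, and the second was 0.28 (adjusted p = 0.0315) and 1.53 (adjusted p = 5.73e-08). As the sets were picked by levels of TGFBI and similar genes, these values describe the split and are no separate evidence. Between DTP cells and their own line TGFBI did not pass the test: the log2 fold change was 0.03 (adjusted p = 0.94) in the parental and -0.05 (adjusted p = 0.888) in the chemoresistant line.

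Other genes moved with this split. COL1A1, the partner chain of COL1A2, held 2.44 to 2.80 FPKM in chemoresistant libraries 1 to 3 and 8.79 to 12.2 FPKM in libraries 4 to 6. POSTN, which encodes periostin, held 0 to 0.0154 and 0.147 to 0.512 FPKM in the same libraries, and THY1, a fibroblast surface marker, held 0.0071 to 0.0142 and 0.264 to 0.368 FPKM. In parental and parental DTP libraries THY1 held 0.278 to 0.558 FPKM, COL1A1 1.106 to 3.671 FPKM and POSTN at most 0.01485 FPKM. Chemoresistant libraries 1 to 3 were far below these levels in THY1 only, and libraries 4 to 6 were above them in COL1A1 and POSTN. POSTN and THY1 are fibroblast markers. The summed level of the 12 markers of that list was 12.3 to 14.3 FPKM in chemoresistant libraries 1 to 3 and 23.3 to 28 FPKM in libraries 4 to 6. COL1A1 is on that list and makes up much of the rise in the sum. LUM, ACTA2 and FBLN1, also on it, scattered less between libraries of a group. Their SEs were 0.056, 0.101 and 0.103 in chemoresistant DTP against chemoresistant cells, against 0.387 for COL1A1.

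In parental cells the summed fibroblast list was 7.93 to 12.6 FPKM, in parental DTP cells 6.20 to 12 FPKM, and in chemoresistant DTP cells 7.99 to 20.8 FPKM. None of the 12 genes was at 0 in every library of a group, and 2, 3, 5 and 3 of them averaged 1 FPKM or more in parental, parental DTP, chemoresistant and chemoresistant DTP cells. COL1A1 and COL3A1 are among them and are matrix genes like the members. In bulk RNA, more or fewer cells of a type and more or less RNA per cell cannot be told apart. The part of other cells in the split was not tested.

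Markers of other tissues differed between the same libraries, though not along the same line in each. ALB, which encodes serum albumin, held 3.81 to 6.49 FPKM in chemoresistant libraries 1 to 3 and 0.678 to 0.818 FPKM in libraries 4 to 6. In chemoresistant DTP cells it held 14.0 and 5.77 FPKM in libraries 5 and 6 and at most 0.0573 FPKM in the other 4, so library 4, which is low in COL1A2, is also low in ALB. KRT19, a keratin of glandular epithelium, held 2.32 and 5.21 FPKM in parental DTP libraries 5 and 6 and at most 0.174 FPKM in the other 4. It held 3.45 and 3.82 FPKM in chemoresistant libraries 1 and 2 and 0.526 to 0.555 FPKM in libraries 3 to 6. Chemoresistant DTP libraries 3 to 6 held 2.48 to 4.60 FPKM of KRT19, and libraries 1 and 2 at most 0.382 FPKM.

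The summed level of 14 liver secretory genes, a list added after their values were seen, was at most 0.242 FPKM in parental and 0.240 FPKM in parental DTP libraries. It was 7.74 to 20.2 FPKM in chemoresistant libraries and 0.322 to 65.1 FPKM in chemoresistant DTP libraries. LYZ, the gene for lysozyme, is on a list of 8 leukocyte markers. It held 0.823 and 2.29 FPKM in parental DTP libraries 5 and 6 and was at most 0.0265 FPKM in the other parental and parental DTP libraries. LYZ made up most of that list's sum in libraries 5 and 6, which was 1.11 and 2.61 FPKM. The sum was 0.2 to 0.381 FPKM in the other parental DTP libraries. LYZ held 1.85, 1.91 and 0.597 FPKM in chemoresistant libraries 1 to 3 and 1.35 to 2.53 FPKM in chemoresistant DTP libraries 3 to 6. It was at most 0.044 FPKM in the other libraries of these groups. The part of these RNAs in the members' split was not tested.

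**Figure D2:**
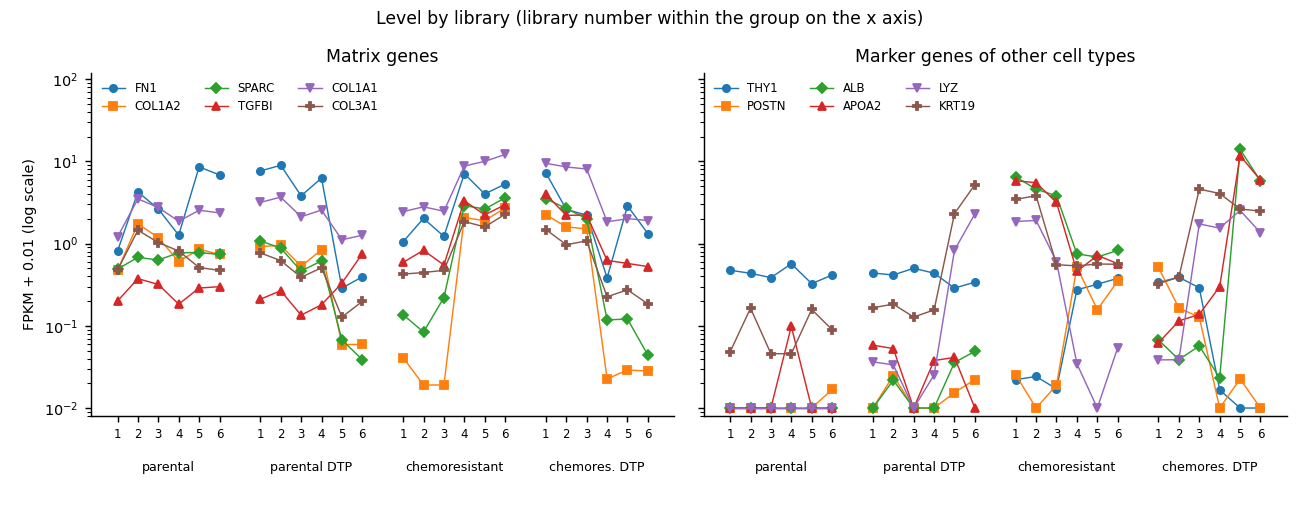
FPKM + 0.01 on a log axis in each library, for 4 members with COL1A1 and COL3A1 on the left and for marker genes of other cell types on the right; lines join the libraries of a group and have no order in time. COL1A2 and SPARC are at least 1.503 FPKM in one and at most 0.211 FPKM in the other of the 2 sets of chemoresistant libraries, and ALB and KRT19 follow other divisions in chemoresistant DTP cells.

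Vimentin, the product of VIM, is the intermediate filament protein of mesenchymal cells. VIM (ENSG00000026025) lies on chromosome 10 from 17228259 to 17237593 on the plus strand. Parental libraries held 0.485 to 1.01 FPKM, with a median of 0.746, and parental DTP libraries held 0.411 to 1.06 FPKM, with a median of 0.677. Chemoresistant libraries held 4.75 to 7.90 FPKM, with a median of 5.68, and chemoresistant DTP libraries 3.84 to 6.82 FPKM, with a median of 4.53. The 2 lines did not overlap in either state.

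The mean level of VIM was 7.74-fold higher in chemoresistant than in parental cells (5.92 ± 1.29 against 0.765 ± 0.193 FPKM, SD, n = 6 each), and the log2 fold change was 1.96 (SE 0.13, limma adjusted p = 5.63e-13). Against parental DTP, chemoresistant DTP cells had a log2 fold change of 1.78 (SE 0.13, adjusted p = 9.44e-12). Tested with voom on recovered reads, the first difference was 2.98. The level in libraries 4 to 6 of the chemoresistant group, 6.36 to 7.90 FPKM, was above that in libraries 1 to 3, 4.75 to 5.00 FPKM, so the split touched VIM as well. With only the low libraries the difference was 1.73 and with only the high ones 2.18.

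An antisense gene, VIM-AS1, overlaps an exon of VIM on the other strand. It held at most 0.1 FPKM in the parental and parental DTP libraries and 0.22 to 0.607 FPKM in the chemoresistant and chemoresistant DTP libraries. Whether the counting used strand is not given in the sources used here, so reads of the pair cannot be told apart where they overlap.

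N-cadherin, the product of CDH2, is the cadherin that often replaces E-cadherin in mesenchymal cells. CDH2 (ENSG00000170558) lies on chromosome 18 from 27950966 to 28177446 on the minus strand. It was the one member that fell in the chemoresistant line by the test. Parental libraries held 1.18 to 1.36 FPKM, with a median of 1.24, and parental DTP libraries 1.18 to 1.31 FPKM. Chemoresistant libraries held 0.297 to 0.486 FPKM, with a median of 0.384, and chemoresistant DTP libraries 0.229 to 0.672 FPKM. The lines did not overlap. In the chemoresistant group libraries 1 to 3 held 0.297 to 0.318 FPKM and libraries 4 to 6 held 0.449 to 0.486 FPKM, so the split touched CDH2 there. In chemoresistant DTP cells libraries 1 to 3 and 4 to 6 overlapped.

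The mean of CDH2 was 3.24-fold higher in parental than in chemoresistant cells (1.25 ± 0.0625 against 0.386 ± 0.0910 FPKM, SD, n = 6 each). The log2 fold change was -0.70 in both chemoresistant against parental (SE 0.06, limma adjusted p = 6.62e-11) and chemoresistant DTP against parental DTP (SE 0.06, adjusted p = 1.53e-10). On recovered reads it was -1.71 and -1.76. DTP cells differed from their own line by -0.01 (adjusted p = 0.849) and -0.02 (adjusted p = 0.83), and neither passed the test. With only the high chemoresistant and chemoresistant DTP libraries the second was -0.15 (adjusted p = 0.0354), and with only the low ones it was 0.11 (adjusted p = 0.254).

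SNAI2, also called Slug, is a zinc finger repressor of the SNAI family. SNAI2 (ENSG00000019549) lies on chromosome 8 from 48917604 to 48921740 on the minus strand. It had the highest level of the 8 genes per length in every group. Parental libraries held 18.0 to 19.3 FPKM, with a median of 18.5, and parental DTP libraries 18.2 to 22.8 FPKM, with a median of 21.3. Chemoresistant libraries held 31.5 to 34.2 FPKM, with a median of 31.7, and chemoresistant DTP libraries 34.8 to 36.5 FPKM, with a median of 35.5. The 4 groups stood in this order, and only the parental and parental DTP ranges overlapped.

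SNAI2 was 1.73-fold higher in chemoresistant than in parental cells (32.2 ± 1.04 against 18.6 ± 0.525 FPKM, SD, n = 6 each; log2 fold change 0.76, SE 0.04, limma adjusted p = 1.29e-14). Chemoresistant DTP exceeded parental DTP cells by 0.73 on the log2 scale (SE 0.04, adjusted p = 7.37e-14). In chemoresistant DTP cells all 6 libraries exceeded all 6 of the chemoresistant group, by 1.11-fold in the mean and by 0.14 on the log2 scale (SE 0.04, adjusted p = 0.00506). With only the high libraries of these 2 groups that call was lost (0.13, adjusted p = 0.133). In parental DTP cells it was 1.14-fold above parental cells (log2 fold change 0.17, SE 0.04, adjusted p = 0.000669), but this flipped to -0.01 (adjusted p = 0.891) under relative log expression scaling. That scaling sets the median change of all tested genes near 0, where it was 0.14 in FPKM for that comparison.

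ZEB1 is a zinc finger and homeodomain repressor of epithelial genes. ZEB1 (ENSG00000148516) lies on chromosome 10 from 31318495 to 31529814 on the plus strand. It was below the filter on low values in all groups. Parental libraries held 0.0387 to 0.0818 FPKM (8 to 19 reads) and parental DTP libraries 0.0155 to 0.0548 FPKM (2 to 18 reads). Chemoresistant libraries held 0.227 to 0.369 FPKM (40 to 78 reads) and chemoresistant DTP libraries 0.247 to 0.405 FPKM (43 to 102 reads). The 2 lines did not overlap, though all values were far below those of SNAI2.

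By an exact permutation test of FPKM, two-sided, ZEB1 differed between chemoresistant and parental cells (5.63-fold, p = 0.00216) and between chemoresistant DTP and parental DTP cells (7.6-fold, p = 0.00216), the smallest p that 6 against 6 can give. Adjusted over 4 comparisons both were 0.00433, higher in 6 of 6 libraries. Between DTP cells and their own line ZEB1 did not pass the test (exact permutation p = 0.314 in the parental and 0.31 in the chemoresistant line). ZEB1-AS1, a non-coding gene that overlaps a ZEB1 exon on the other strand, held 0.606 to 0.762 FPKM in parental libraries and 1.80 to 2.91 FPKM in the other 18. Reads of ZEB1 and ZEB1-AS1 cannot be told apart where they overlap. Parental DTP cells held 1.80 to 2.27 FPKM of ZEB1-AS1, and the part of antisense reads in the ZEB1 level was not tested.

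**Figure D3:**
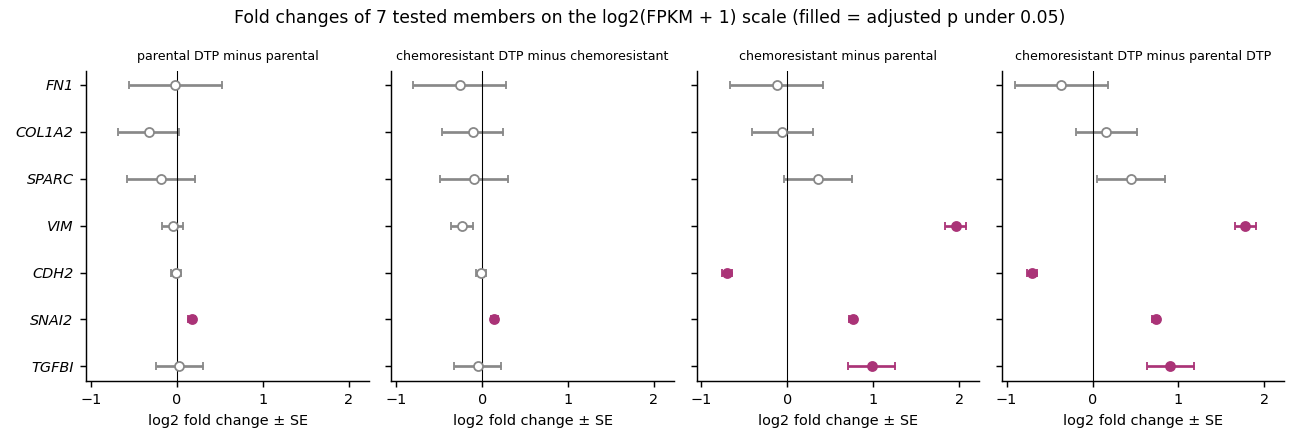
Log2 fold changes (points) with their standard errors (bars) for the 7 tested members in 4 comparisons on the log2(FPKM + 1) scale; filled points passed an adjusted p of 0.05. SNAI2, VIM and TGFBI are filled to the right and CDH2 to the left between the lines, and only SNAI2 is filled in the DTP comparisons.

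Counted over the 7 tested members, limma called 1 higher and 0 lower in parental DTP against parental, where 45.8% of all tested genes were called higher and 19.7% lower. It called 1 higher and 0 lower in chemoresistant DTP against chemoresistant, where 20.5% and 27.4% of all genes were called. It called 3 higher and 1 lower in chemoresistant against parental, where 48.2% and 29.4% were called, and 3 higher and 1 lower in chemoresistant DTP against parental DTP, where 29.5% and 32.3% were called. With 7 members tested, the counts between the lines are not set apart from those shares. In both DTP comparisons a smaller share of the members than of all genes was called, and that gap was not tested. FN1, COL1A2, SPARC and TGFBI had SEs from 0.274 (TGFBI) to 0.542 (FN1) in these comparisons, against 0.04 for SNAI2. Relative log expression scaling changed the split of all calls from 69.9% to 50.4% higher in parental DTP against parental and from 62.1% to 50.4% higher in chemoresistant against parental.

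The difference between the DTP changes of the 2 lines called 0 of the 7 members, where 63.8% of all genes were called in either direction. At an unadjusted p under 0.05 limma also found 0 members, and a voom test on recovered reads called 0. Under relative log expression scaling the difference for SNAI2 was 0.17 (adjusted p = 0.0163), against -0.03 in FPKM (adjusted p = 0.677).

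The miR-200 family and miR-205 are shown because they repress ZEB1 and the host genes of 3 of the 6 were measured here. Mature sequences are from RefSeq (GRCh38.p14), with the seed, bases 2 to 8, in capitals. MIR200CHG is the host of miR-200c and miR-141, and MIR205HG that of miR-205; miR-200b, miR-200a and miR-429 come from another cluster, on chromosome 1, whose host was not used here:

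miR-200c-3p: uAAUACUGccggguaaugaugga
miR-200b-3p: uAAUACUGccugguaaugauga
miR-429: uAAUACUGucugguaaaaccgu
miR-141-3p: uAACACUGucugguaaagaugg
miR-200a-3p: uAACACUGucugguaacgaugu
miR-205-5p: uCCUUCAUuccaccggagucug

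The first 3 share one seed and the next 2 share another. In the 3′ UTR of ZEB1 (2549 bases in the longest GENCODE release 29 model) the complement of the seed AAUACUG occurs 6 times, that of AACACUG 3 times and that of CCUUCAU 1 time. The same seed AAUACUG has 2 matches in FN1, 1 in SNAI2 and 1 in TGFBI, and none in COL1A2, SPARC, VIM or CDH2. A pair of the ZEB1 matches, with the complement of the seed in capitals:

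ZEB1 site 1: gttttatcttatCAGTATTatcac
ZEB1 site 5: cttcaaacctggCAGTATTaatac

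MIR205HG was 27.3 ± 1.59 FPKM in parental and 146.5 ± 8.30 FPKM in chemoresistant cells (SD, n = 6 each; log2 fold change 2.38, SE 0.05), and 52.5 ± 2.88 FPKM in parental DTP cells. MIR200CHG was 3.76 ± 0.481 FPKM in parental, 6.33 ± 0.664 FPKM in parental DTP and 8.54 ± 0.966 FPKM in chemoresistant cells (chemoresistant against parental 1.00, SE 0.09). Both host genes passed the limma test in those comparisons, and ZEB1 was higher, not lower, in the chemoresistant line. The table holds host gene RNA and not the mature microRNAs, so their level is not known from it.

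Epithelial genes were expressed throughout. CDH1, the E-cadherin gene that SNAI2 and ZEB1 repress, was 55.4 ± 2.53 FPKM in parental, 48.2 ± 3.21 FPKM in parental DTP, 31.0 ± 1.40 FPKM in chemoresistant and 41.7 ± 5.90 FPKM in chemoresistant DTP cells (SD, n = 6 each). It fell by 0.82 on the log2 scale (SE 0.07) in chemoresistant against parental cells and rose by 0.40 (SE 0.07) in chemoresistant DTP against chemoresistant cells. The highest group mean of CDH2, 1.25 FPKM, was far below each of these levels per length.

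Of 26 tested epithelial partner genes 17 rose and 4 fell in chemoresistant against parental cells, with a median log2 fold change of 0.37 against 0.14 over all genes, of which 48.2% rose and 29.4% fell. Under relative log expression scaling the counts were 14 and 7. The tight junction gene CLDN7 rose by 2.94 (SE 0.07), from 5.75 ± 0.204 to 50.8 ± 0.870 FPKM. CLDN4 rose by 2.37 (SE 0.09), the splicing regulator ESRP1 by 1.45 (SE 0.06) and the GTPase gene RAB25 by 1.26 (SE 0.08). Besides CDH1, the genes that fell included ESRP2 (by 0.65, SE 0.08), EPCAM (by 0.52, SE 0.06) and MARVELD3 (by 0.36, SE 0.05). In parental DTP against parental cells 16 rose and 6 fell, where 45.8% and 19.7% of all genes did. The largest rises were those of ESRP1 (1.47, SE 0.06) and CLDN7 (1.05, SE 0.07), while ESRP2 fell by 0.66 (SE 0.08).

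The other mesenchymal markers moved both ways. Of 23 tested, 12 rose and 8 fell in chemoresistant against parental cells (median 0.22 against 0.14 over all genes), which is near the 48.2% and 29.4% of all genes, and 8 and 8 under relative log expression scaling. AXL, a receptor tyrosine kinase, fell by 2.22 on the log2 scale (SE 0.08), from 6.54 ± 0.785 to 0.618 ± 0.120 FPKM. THBS1, which encodes thrombospondin 1, fell by 1.58 (SE 0.11), while COL6A2, a type VI collagen chain, rose by 1.66 (SE 0.20) and the collagen cross-linking enzyme gene LOXL2 by 1.65 (SE 0.10). In parental DTP against parental cells 2 rose and 9 fell, where 45.8% and 19.7% of all genes did, with a median of -0.17 against 0.14. In chemoresistant DTP against chemoresistant cells 3 rose and 11 fell, where 20.5% and 27.4% of all genes did, with a median of -0.22 against -0.02.

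Of 12 other EMT transcription factors tested, 2 rose and 8 fell in chemoresistant against parental cells, where 48.2% and 29.4% of all genes did. In chemoresistant DTP against parental DTP cells 0 rose and 8 fell, where 29.5% and 32.3% of all genes did. ETS1 fell by 0.86 (SE 0.05), SNAI1, the closest relative of SNAI2, by 0.77 (SE 0.09) and FOXQ1 by 0.60 (SE 0.04) in chemoresistant against parental cells. SNAI1 was 2.20 ± 0.519 FPKM in parental and 0.867 ± 0.195 FPKM in chemoresistant cells, where SNAI2 went the other way. In chemoresistant DTP against parental DTP cells FOXC2, TCF4 and TWIST1 fell by 0.80 (SE 0.05), 0.80 (SE 0.05) and 0.67 (SE 0.07). In parental DTP against parental cells 7 rose and 3 fell, where 45.8% and 19.7% of all genes did, and 4 and 4 under relative log expression scaling. FOXC1 was up by 0.89 (SE 0.08) and SNAI1 down by 0.71 (SE 0.09) there.

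The 6 tested ligands of the TGF-beta family were TGFB1, TGFB2 and BMP and GDF genes, with BMP2, BMP7 and GDF11 among them. Of these 5 fell and none rose in chemoresistant against parental cells, where 29.4% of all genes fell and 48.2% rose (median -0.68 against 0.14). The same counts were found in chemoresistant DTP against parental DTP cells, where 32.3% of all genes fell and 29.5% rose (median -0.58 against -0.02). TGFB1 fell by 1.16 (SE 0.05), from 24.4 ± 1.90 to 10.4 ± 0.797 FPKM, and TGFB2 by 1.30 (SE 0.07). The 8 tested receptors include activin and BMP receptors. In chemoresistant against parental cells 7 rose and 1, TGFBR2, fell (by 0.71, SE 0.06), where 48.2% and 29.4% of all genes did. In chemoresistant DTP against parental DTP cells 1 rose and 3 fell, where 29.5% and 32.3% did (median 0.006 against -0.02). Of 15 SMAD and feedback genes 10 rose and 1 fell in chemoresistant against parental cells, against the same 48.2% and 29.4% of all genes. The largest rises were those of the decoy receptor gene BAMBI (2.48, SE 0.06) and the latent TGF-beta binding protein gene LTBP4 (1.88, SE 0.07). In chemoresistant DTP against parental DTP cells 8 rose and 3 fell, against 29.5% and 32.3% of all genes.

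Receptors of fibronectin and TGFBI and the cadherins moved as follows between the lines. Of 9 receptor genes tested 6 rose and 2 fell in chemoresistant against parental cells, where 48.2% and 29.4% of all genes did. The largest rises were those of the fibronectin receptor subunit ITGA5 (1.40, SE 0.06) and the syndecan SDC4 (0.85, SE 0.08). In chemoresistant DTP against parental DTP cells 7 rose and 1 fell, where 29.5% and 32.3% of all genes did. SDC1 rose there by 1.13 (SE 0.05) and ITGA3 by 0.93 (SE 0.065). The gene that fell was ITGA4, an integrin subunit for fibronectin and VCAM1 (by 1.13, SE 0.05). Of 8 cadherins and catenins tested, CDH2 included, 2 rose and 4 fell in chemoresistant against parental cells, against the same 48.2% and 29.4% of all genes. CDH13 fell by 1.28 (SE 0.05), and the catenin genes CTNND1 and JUP rose by 0.94 (SE 0.14) and 0.79 (SE 0.07).

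**Figure D4:**
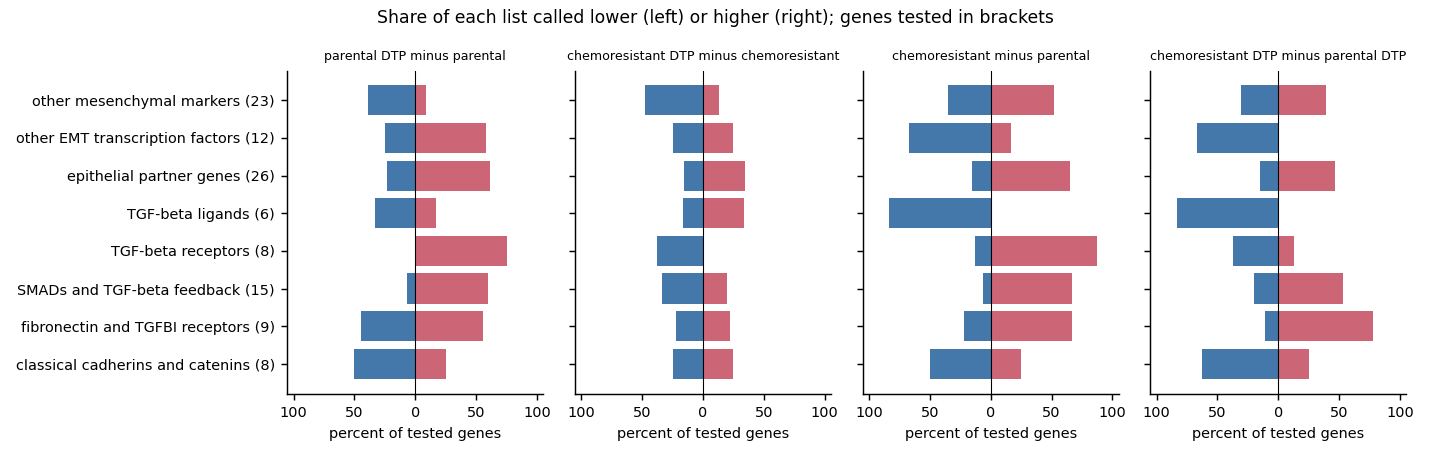
Percent of the tested genes of 8 lists called lower (left of 0) or higher (right of 0) in 4 comparisons, with the number tested in brackets. Genes of the list of TGF-beta ligands, which also holds BMP and GDF genes, lie only to the left between the lines. Epithelial partner genes lie mostly to the right in each comparison.

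Correlations between members were taken over the log2(FPKM + 1) values of the 24 libraries. VIM, SNAI2 and ZEB1 correlated with each other at Pearson r of 0.93 to 0.95 and with CDH2 at -0.91 to -0.94, which follows from the difference between lines that all 24 points share. COL1A2 and SPARC correlated at 0.93. TGFBI correlated with both kinds of gene: at 0.78 with SPARC and 0.60 with COL1A2, and at 0.78 with VIM, 0.70 with SNAI2, 0.68 with ZEB1 and -0.66 with CDH2. FN1 correlated less well, at 0.68 with COL1A2 and 0.59 with SPARC. These coefficients are descriptions of 24 libraries in 4 groups.

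The tested genes most like each member, by Pearson r over the same 24 libraries, were as follows. COL1A2 was nearest to SPARC (0.93), COL3A1 (0.92) and MYL9 (0.91), and SPARC to MYL9 (0.94), COL1A2 (0.93) and COL1A1 (0.93). CCN2 (0.89) and COL1A1 (0.87) were among the genes nearest to TGFBI, and FN1 was nearest to COL1A2 (0.68), MMP2 (0.67) and RPL10P9 (0.66). VIM was nearest to MLXP1, S100A12 and GSTM3 (0.98 each) and CDH2 to IGF2BP1 (0.98), CCDC8 (0.98) and UBE4A (0.98). SNAI2 was nearest to ZNF131, IGFBP3 and GPNMB (0.99 each), and ZEB1 to GABRE (0.99) and to 2 loci without a symbol.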

How the data were processed

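The deposited table holds FPKM per gene and library, named as FPKM per the file headers. The build was GRCh38, per the submitters' processing notes. For aligner, counter, annotation release and strandedness: not given in the sources used here. Of its rows 23 named no gene and were left out. FPKM values were whole multiples of 1 read for all 41101 genes above 0 (within 0.02 reads), so relative depth and read numbers could be recovered, and the implied length of CDH2 (8583 bases) differs from the GENCODE release 29 exon union (4950). Tests used limma 3.58.1 (R 4.3.3) on log2(FPKM + 1) with 4 group means and all 24 libraries, tested on simulated data first. ZEB1, below the filter, was tested by exact permutation (scipy). The files held no batch label.

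Members and gene lists were chosen with earlier results of these data known. Named genes were the 8 members and up to 4 genes of each list with the largest change past the threshold per comparison. The 3 genes nearest to each member and genes of the other cell types' lists were also named. ESRP2, EPCAM and MARVELD3 were named outside this rule, as epithelial genes that fell. The liver list and its genes were added after their values were seen. Alternatives were another pseudocount (0.1), no filter, a filter at 5 FPKM, 2 scalings, a fit of only the groups compared, a replicate block, voom on recovered reads, left-out libraries, and 2 added after seeing the data, which keep 1 set of chemoresistant libraries each. Some genes that this rule names are not reported here.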

Additional observations from a re-analysis of the deposited data

Results flagged for a closer look

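Among 32 groups of 6 values (8 members in 4 groups), 4 had 1 library far from the others by Dixon's test, where chance flags about 1 in 20. FN1 in chemoresistant DTP library 1 was 7.25 FPKM, against 0.374 to 2.87 FPKM in the other 5. CDH2 in chemoresistant DTP library 5 was 0.672 FPKM, against 0.229 to 0.389 FPKM. ZEB1 in parental DTP library 6 was 0.0155 FPKM, against 0.0474 to 0.0548 FPKM, and rests on 2 reads. TGFBI in parental DTP library 6 was 0.746 FPKM, against 0.125 to 0.322 FPKM. The split of COL1A2 and SPARC into 2 sets of 3 libraries is not of the kind this test finds.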

How the results depend on the processing

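Most member results kept their direction and their side of the threshold: 222 of the 224 alternative values of called members did, among them every value computed for VIM and CDH2 between the lines; both exceptions were SNAI2 in a DTP comparison, given below. The replicate block left the members called at 1, 1, 4, 4 and 0 in the 5 comparisons. Same-numbered libraries correlated from -0.385 to 0.403 in parental DTP against parental, and in no comparison did every pair exceed 0.1, so the numbers were not taken as pairs. Depth limits COL1A2 and SPARC in the low libraries, at 2 to 20 reads, and ZEB1.

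Under relative log expression scaling the members called were 0 in parental DTP against parental, where SNAI2 was -0.007 and TGFBI -0.015, and 1 in the difference between DTP changes, where SNAI2 was 0.173 and CDH2 0.108; upper-quartile scaling gave 0.019 and 0.030 for these 2. The stricter filter left 2 members called in each comparison between the lines, since fewer were tested, and 5012, 3932, 6020, 4895 and 4877 genes called in the 5 comparisons, against 8994, 6586, 10645, 8492 and 8764. With no filter 16484 genes were called in chemoresistant against parental cells. Without parental DTP libraries 5 and 6, parental DTP against parental was 0.805 for FN1, 0.055 for SPARC, 0.056 for VIM and -0.092 for TGFBI; between the DTP groups of the 2 lines COL1A2 was -0.100; and the difference between DTP changes was -0.039 for COL1A2, -0.154 for SPARC and 0.039 for TGFBI. On recovered reads TGFBI was -0.106 in the first and COL1A2 -1.109 in the second of these, where a pseudocount of 0.1 gave COL1A2 -0.074. None of these reversals had an adjusted p under 0.05 except that of SNAI2 in the difference between DTP changes.

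Keeping the high chemoresistant libraries, the difference from parental cells was 0.581 for FN1 and 0.767 for COL1A2, and FN1 was 0.128 in chemoresistant DTP against parental DTP. SNAI2 in chemoresistant DTP against chemoresistant cells was then 0.13 (limma adjusted p = 0.133). Keeping the low ones, SPARC was -0.556 and -0.434 in the comparisons between the lines and COL1A2 -0.562 in the DTP one; CDH2 was 0.114 and COL1A2 0.000 in chemoresistant DTP against chemoresistant cells, and CDH2 was 0.127 in the difference between DTP changes. The cause was not tested.

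Leaving out 1 library at a time moved values of members that were not called across 0. In parental DTP against parental the ranges were -0.272 to 0.321 for FN1, -0.106 to 0.002 for VIM, -0.024 to 0.001 for CDH2 and -0.061 to 0.065 for TGFBI. In chemoresistant DTP against chemoresistant they were -0.298 to 0.099 for COL1A2, -0.334 to 0.122 for SPARC, -0.075 to 0.014 for CDH2 and -0.262 to 0.104 for TGFBI, with 1 to 2 members called: VIM was -0.317 (limma adjusted p = 0.0306) without chemoresistant DTP library 2. In chemoresistant against parental they were -0.370 to 0.112 for FN1 and -0.268 to 0.107 for COL1A2, and in chemoresistant DTP against parental DTP -0.032 to 0.303 for COL1A2. In the difference between DTP changes they were -0.583 to 0.010 for FN1, -0.145 to 0.312 for SPARC, -0.061 to 0.028 for CDH2 and -0.288 to 0.078 for TGFBI.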
